A study of Mus musculus with 298 samples.

Results

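The heat shock proteins and DnaJ chaperones are the genes of the protein folding machinery, and the members described here are all rows of the deposited table named Hsp followed by a, b, d, e, h or a digit, leaving out Hspbap1 and Hspg2, together with all rows named Dnaj. The rule found 69 members among 16892 genes, 28 named Hsp and 41 named Dnaj. They were separated from general knowledge, with earlier results of these data known, into 11 heat-inducible genes and 6 genes induced by stress of the endoplasmic reticulum (ER). The other 52 were treated as constitutive or tissue-restricted genes. RNA was counted in 298 single cells of the thoracic sympathetic ganglion of mice that carried Wnt1-Cre and R26R-Tomato, a cross that labels derivatives of the neural crest and that all groups share. The ganglia were digested with warm enzymes and cells were caught on 24 microfluidic chips, so every cell passed through a dissociation. The labels do not show whether its handling was equal for each age and sex. The labels give 16 cholinergic cells, 8 each of Ach1 and Ach2, then 4 Glutamatergic cells, then 193 noradrenergic cells, of which 10 were Noradrenergic1, 39 Noradrenergic2, 18 Noradrenergic4, 23 Noradrenergic5 and all the others Noradrenergic3. A further 85 cells were labelled Unclassified and entered no comparison.

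The cells fall into 10 collections, each a single sex and age: males at postnatal days (P) 29, 30 and 38, and females at P11, P16, P20, P30, P31, P33 and P34. The labels name no animals, so a collection stands as the replicate, and a collection may hold 1 animal or several. In the identity comparisons, which hold a term for collection, p-values measure the spread left between libraries of an identity and a collection. That spread includes the spread between cells, most of all where such a library held 1 cell. In the sex and age fits p-values measure the spread between collections, which also holds the spread between the 3 to 43 cells pooled in each. Total counts ran from 7225 to 81589 per cell with a median of 33099. Identity libraries were often thin: most Ach1 libraries held a single cell, and the 4 Glutamatergic cells came from 3 collections. The 5 cells of the P16 collection, labelled female, held 0 counts of Xist and 28 counts of 4 Y-linked genes, against the label. They do not enter the comparison of sexes, and no count of called members below changed when they were left out. The identities carried their markers, since 4 of 4 cholinergic markers were higher in cholinergic cells and 4 of 4 glutamatergic markers were higher in Glutamatergic cells than in noradrenergic cells.

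Chaperones of the Hsp70 family bind and release unfolded protein in a cycle driven by ATP. DnaJ proteins deliver substrates to them and speed up the hydrolysis, and Hsp90 proteins act later on partly folded clients such as kinases and receptors. Some members are made at all times, while others are raised by heat shock factor 1 when proteins unfold in the cytosol, or by the unfolded protein response when they unfold in the ER. Neurons live long and carry long axons, and are known for a high level of constitutive Hsp70 and Hsp90 and a weak induction of the classic heat-inducible genes.

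The DNA letters that heat shock factor 1 and the ER stress factors recognise were looked for in the RefSeq promoters (build GRCm38.p6, 250 bases before to 50 after the gene start), which were found for 57 of the 69 members. A heat shock element of 3 units, written GAANNTTCNNGAA and read on both strands, was present in 198 of all 32851 promoters (0.603%). Among the members it lay in those of Hspd1, Hspe1, Hsph1 and Dnajb6. Hsph1 is classed here as heat-inducible. Hspd1 and Hspe1 were listed by place as mitochondrial and Dnajb6 as cytosolic or nuclear, and so fell in the constitutive class. Class and element thus do not coincide, but that sorting does not show that these genes are not heat-inducible. The ER stress element, written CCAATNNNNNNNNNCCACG, was present in 39 promoters (0.119%) and among the members in those of Hspa5, Hsp90b1 and Dnajc3. A match describes letters only, and a promoter without one may hold other forms of either element. The promoters below are of 2 members with the heat shock element and 2 with the ER stress element whose values are given further on, with the matched letters in capitals. Hspe1 lies at chr1:55087898-55088197 on the plus strand, Hsph1 at chr5:149636287-149636586 on the minus strand, Hspa5 at chr2:34771840-34772139 on the plus strand and Hsp90b1 at chr10:86705395-86705694 on the minus strand.
Hspe1: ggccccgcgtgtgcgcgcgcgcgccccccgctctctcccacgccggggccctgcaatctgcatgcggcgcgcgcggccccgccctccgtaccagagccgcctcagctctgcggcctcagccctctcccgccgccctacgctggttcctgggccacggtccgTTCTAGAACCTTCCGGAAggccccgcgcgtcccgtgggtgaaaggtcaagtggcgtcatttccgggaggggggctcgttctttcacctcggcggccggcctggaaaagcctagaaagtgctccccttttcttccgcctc
Hsph1: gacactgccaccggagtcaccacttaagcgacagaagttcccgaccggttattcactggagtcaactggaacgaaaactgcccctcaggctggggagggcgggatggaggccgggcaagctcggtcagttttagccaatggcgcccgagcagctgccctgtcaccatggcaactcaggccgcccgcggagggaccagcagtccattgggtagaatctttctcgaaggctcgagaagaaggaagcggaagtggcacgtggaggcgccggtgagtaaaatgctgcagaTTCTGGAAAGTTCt
Hspa5: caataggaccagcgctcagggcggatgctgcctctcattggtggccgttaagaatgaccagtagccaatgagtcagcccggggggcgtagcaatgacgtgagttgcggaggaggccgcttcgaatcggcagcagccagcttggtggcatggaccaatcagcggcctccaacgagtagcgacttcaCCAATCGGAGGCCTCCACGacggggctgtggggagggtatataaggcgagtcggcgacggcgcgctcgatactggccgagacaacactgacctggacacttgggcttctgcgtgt
Hsp90b1: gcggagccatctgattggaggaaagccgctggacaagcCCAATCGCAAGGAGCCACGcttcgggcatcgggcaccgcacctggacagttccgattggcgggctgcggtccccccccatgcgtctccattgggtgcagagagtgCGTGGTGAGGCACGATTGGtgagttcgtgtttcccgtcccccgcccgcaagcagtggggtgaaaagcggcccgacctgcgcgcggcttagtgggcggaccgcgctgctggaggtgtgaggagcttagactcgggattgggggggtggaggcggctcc
The Hspe1 promoter is also that of Hspd1, which runs the other way: the windows of this pair share 285 bases, and their overlapping matches are the same letters read from either strand. Hsp90b1 holds 2 matches, 1 on each strand. In Hsph1 the match lies just after the gene start.

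The members held 197884 counts in all, and Hsp90ab1, Hspa8 and Hsp90aa1 took 67.1% of them. Among the heat-inducible genes, Hsp90aa1 (36578 counts) and Dnaja1 (8688) held most counts. Hspa1a (206), Hspa1b (159), Dnajb1 (387) and Hsph1 (998) held few, so sums of that list mainly follow Hsp90aa1. Counts were not divided by gene length, so levels are compared between cells and not between genes. Levels are given as counts per 10000 counts of the library, first as the mean over collections. The summed level of all members was 195 ± 34.4 in Ach1 (SD, n = 7 collections), 201 ± 10.2 in Ach2 (n = 4), 202 ± 25.2 in Glutamatergic (n = 3), 202 ± 10.0 in Noradrenergic1 (n = 5), 202 ± 14.4 in Noradrenergic2 (n = 7), 194 ± 15.7 in Noradrenergic3 (n = 7), 217 ± 14.2 in Noradrenergic4 (n = 5) and 189 ± 15.1 in Noradrenergic5 (n = 6). These sums overlap between the identities. The constitutive Hsp90 gene Hsp90ab1 averaged between 49.2 in Ach1 and 64.4 in Noradrenergic4, a ratio of 1.31. The constitutive Hsp70 gene Hspa8 averaged between 34.4 in Noradrenergic5 and 43.6 in Glutamatergic, a ratio of 1.27. Dnaja1, a DnaJ partner of cytosolic Hsp70, was the most even of the members named here, between 8.58 in Noradrenergic3 and 9.47 in Noradrenergic1, a ratio of 1.10. The ratio was 3.89 for Hspb1, 4.29 for Hspa2 and 6.33 for Hspa12a, the genes that passed a test further on. It was as wide or wider for some rarer members that did not pass, such as Hspa1b (7.35), Hspa1a (6.03) and Dnajb5 (22.2), whose lowest means were 0.0379, 0.0514 and 0.0177.

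**Figure D1:**
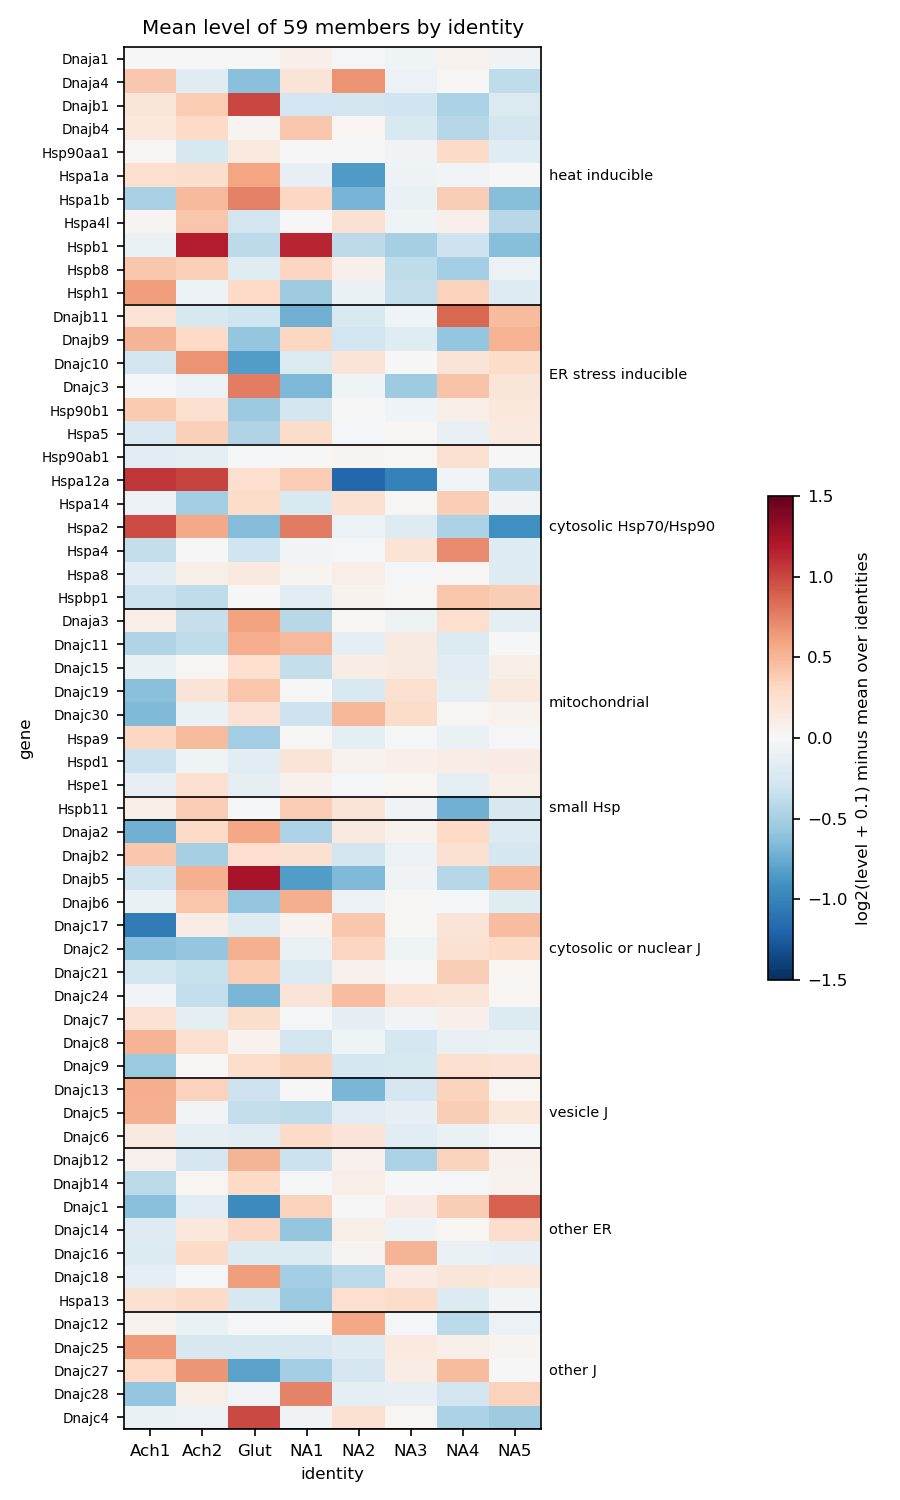
Mean level of the 59 tested members (rows, in groups by role) in the 8 identities (columns), as log2 of counts per 10000 plus 0.1, minus the gene's mean over identities. Hspa12a, Hspa2 and Hspb1 vary widely, as do rarer members such as Dnajb5 and Dnajc1 that did not pass, while Dnaja1, Hspa8 and Hsp90ab1 stay near 0 in every identity.

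Of the 69 members, 59 had enough counts to test. The other 10 were Dnajb13, Dnajb3, Dnajb7, Hspa12b, Hspa1l, Hspb2, Hspb3, Hspb6, Hspb7 and Hspb9, which are restricted to testis, muscle or other tissues, or were seen too rarely: they held between 1 count (Dnajb7) and 22 counts (Hspb2), and 96 together. At the other end, Hsp90b1, Hsp90aa1, Hsp90ab1, Dnaja1, Hspb8 and Hspa8 had a count in all 298 cells.

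Cholinergic cells were first set against noradrenergic cells. A single member, Hspa12a, an atypical Hsp70 that is abundant in brain, was higher in cholinergic cells. By collection its level in the 16 cholinergic cells had a lowest value of 0, a median of 0.942 and a highest of 2.33 counts per 10000 (1.16 ± 0.80, SD, n = 7 collections). In noradrenergic cells the lowest was 0, the median 0.306 and the highest 0.575 (0.293 ± 0.169, n = 10). The groups overlap, and cholinergic cells were higher in 6 of 7 shared collections. The log2 fold change was 1.49 (SE 0.29), with an adjusted p of 2.15e-05 by edgeR's quasi-likelihood test with Benjamini-Hochberg adjustment. Hspa12a lies at chr19:58795750-58943654 on the minus strand and shares an exon stretch with Eno4 on the other strand, and reads of such a pair can be told apart only if the counting used strand, which is not given in the sources used here. With libraries of at least 2 cells the log2 fold change was 1.12 with an adjusted p of 0.232, and the call was lost.

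Hspa12a was thus 1 called of 59 members tested, against 4.57% of all genes tested in that comparison (528 of 11555). The median log2 fold change was -0.16 over the members and -0.20 over all genes. In the heat-inducible list, 0 of 11 passed by edgeR, 0 had an unadjusted p under 0.05 and 8 of 11 lay above 0, with a median of 0.17. That count was 9 with RLE scaling, 6 with libraries of at least 2 cells and 4 without P38 males (median -0.0028), so the list had no settled direction. The small heat shock protein Hspb1 had a log2 fold change of 0.44 (SE 0.24, adjusted p = 0.377), and the inducible Hsp90 gene Hsp90aa1 one of -0.32 (SE 0.20, adjusted p = 0.449), both by edgeR. The constitutive pair differed as little, with -0.33 for Hsp90ab1 (SE 0.20, adjusted p = 0.447) and -0.27 for Hspa8 (SE 0.20, adjusted p = 0.543) by edgeR. Hspa2, an Hsp70 gene known best from the testis, was higher in cholinergic cells in 7 of 7 collections, at 1.61 ± 0.49 (SD, n = 7) against 0.894 ± 0.211 in noradrenergic cells (n = 10), with a log2 fold change of 0.73 and an edgeR adjusted p of 0.0768. It did not pass, but passed under 5 of the alternative settings given in the closing section. In the ER stress list 0 of 6 passed by edgeR and 0 had an unadjusted p under 0.05. With 1 of 6 above 0, and 4 of 6 with RLE scaling, the direction of that list was not settled either, and the ER Hsp70 gene Hspa5 had -0.09 as its log2 fold change (SE 0.19, adjusted p = 0.897 by edgeR).

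The 3 other members with the largest fold changes were rare. Dnajc17, which is tied to splicing, had 4 counts in the 16 cholinergic cells, with a log2 fold change of -2.13 (SE 0.96, adjusted p = 0.234). Dnajc1, an ER membrane DnaJ, had 3 counts there, with -1.82 (SE 0.77, adjusted p = 0.189), and the ribosome-associated Dnajc2 had -0.86 (SE 0.46, adjusted p = 0.359). None of these 3 passed edgeR's test.

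Glial and immediate-early genes lay mostly above 0 in the same comparison, 12 of 13 glial markers with a median log2 fold change of 0.68 and 18 of 20 immediate-early genes with a median of 0.43, against -0.20 over all genes. The summed level of 14 glial markers was 34.3 ± 21.96 in Ach1 (SD, n = 7 collections) and 26.1 ± 14.1 in Ach2 (n = 4), against means of 9.52 to 16.8 in the 5 noradrenergic identities. Of 13 glial markers tested, 2 passed by edgeR in cholinergic cells, Pmp22 with a log2 fold change of 1.19 and Sostdc1 with 1.35. The glial factor Sox10 had 3 counts in the 16 cholinergic cells. Of 20 immediate-early genes, 2 passed, Ier3 with 1.18 and Atf3 with 1.17. The part of glial RNA and of the immediate-early response in the chaperone values was not tested.

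**Figure D2:**
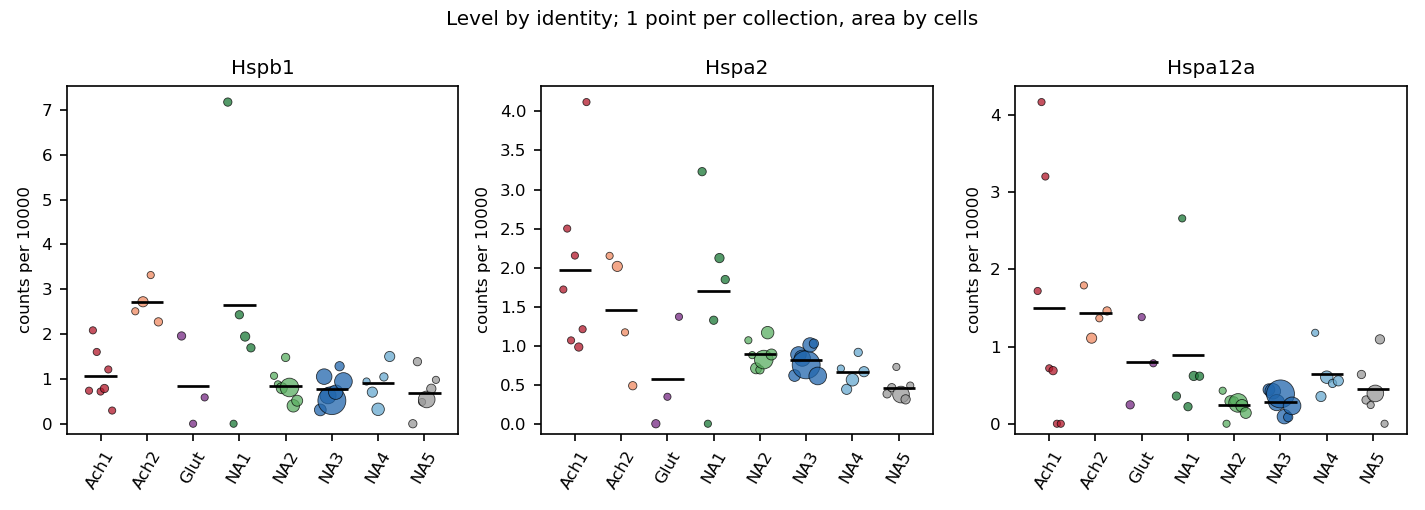
Level of Hspb1, Hspa2 and Hspa12a in counts per 10000 (vertical axis) by identity (NA, Noradrenergic). Each point is the pooled cells of a collection, with area by the number of cells, and bars are means over collections. The Hspb1 mean of Noradrenergic1 rests on a point at 7.18 from 2 cells, and the Hspa2 points of Noradrenergic5 lie between 0.312 and 0.727.

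Glutamatergic cells, which carry Slc17a6, Calca, Tac1 and Scn10a, had no called member against noradrenergic cells. By edgeR 0 of 59 members passed, against 2.63% of all genes, 5 had an unadjusted p under 0.05, and DESeq2 called 1. The median log2 fold change was -0.26 over the members and -0.39 over all genes. The 6 ER stress genes had a median of -0.83, with 5 below 0 and 3 at an unadjusted p under 0.05, while none was called by edgeR. With RLE scaling the median of all genes moved to 0.02 and that of the ER stress genes to -0.43, still with 5 below 0. The 11 heat-inducible genes had 4 above 0, and 8 with RLE scaling. Hsp90b1, the Hsp90 of the ER, stood at 5.87, 3.80 and 7.24 counts per 10000 in the 3 Glutamatergic libraries, against a lowest of 7.31, a median of 8.06 and a highest of 9.06 in noradrenergic cells (n = 10 collections). The Glutamatergic values all lie below the noradrenergic range, and the log2 fold change was -0.79 (SE 0.34, adjusted p = 0.267) by edgeR. Each Glutamatergic library held 1 or 2 cells, and the share of all genes that lie outside the noradrenergic range was not counted. Hspa5 stood at 4.41, 2.42 and 3.13 in Glutamatergic libraries, against a lowest of 3.91, a median of 4.96 and a highest of 8.18 in noradrenergic cells, so that 1 value overlaps. Its log2 fold change was -0.75 (SE 0.35, adjusted p = 0.355) by edgeR. Both promoters are printed above.

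Dnajb1, the heat-inducible DnaJ partner of Hsp70, stood at 0.979, 1.38 and 0.978 counts per 10000 in the Glutamatergic libraries, against a lowest of 0.220, a median of 0.383 and a highest of 0.584 in noradrenergic cells (n = 10 collections), and the groups do not overlap. Its log2 fold change was 1.22 (SE 0.56, adjusted p = 0.326) by edgeR, and DESeq2 called it with an adjusted p of 0.0291. It rests on 13 counts in 4 cells. Dnajc10, a disulfide reductase of the ER, had -1.68 (SE 0.78, adjusted p = 0.338) by edgeR. Dnajc1 and Dnajc24 had 0 counts in the 4 cells, in which 3 counts of a total of 120921 would be a level of 0.248. That floor is above their noradrenergic levels of 0.129 and 0.0966, so no fold is given, and Dnajc4 had 2 counts against 30 in 193 noradrenergic cells and lies under the same floor. In these cells 3 of 20 immediate-early genes passed, Gadd45g with a log2 fold change of 1.88, Btg2 with 1.52 and Jun with 1.00, beside a summed immediate-early level of 49.1 ± 30.7 (SD, n = 3 collections), and their part in the Dnajb1 value was not tested.

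Between the cholinergic identities, Ach1 against Ach2, 0 of 59 members passed by edgeR, against 0.138% of all genes, while 5 had an unadjusted p under 0.05 and DESeq2 called 0. The largest of the tested inducible differences by p was Hspb1, which protects actin and other filaments. In Ach1 it ranged from 0.294 to 2.08 counts per 10000 over 8 single cells, with a median of 0.79, and in Ach2 from 0.609 to 5.82, with a median of 2.49. The cells overlap. Over collections Hspb1 averaged 1.06 ± 0.61 in Ach1 (SD, n = 7) and 2.70 ± 0.45 in Ach2 (n = 4), with a log2 fold change of -1.22 (SE 0.40, adjusted p = 0.41) by edgeR. Dnaja2, a DnaJ of the cytosol, had -1.21 (SE 0.42, adjusted p = 0.44) by edgeR. Atf3, a stress and injury factor, was lower in Ach1 with a log2 fold change of -1.68, and averaged 1.25 in Ach1 and 4.10 in Ach2, beside the higher Hspb1 mean of Ach2, and its part in that value was not tested.

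**Figure D3:**
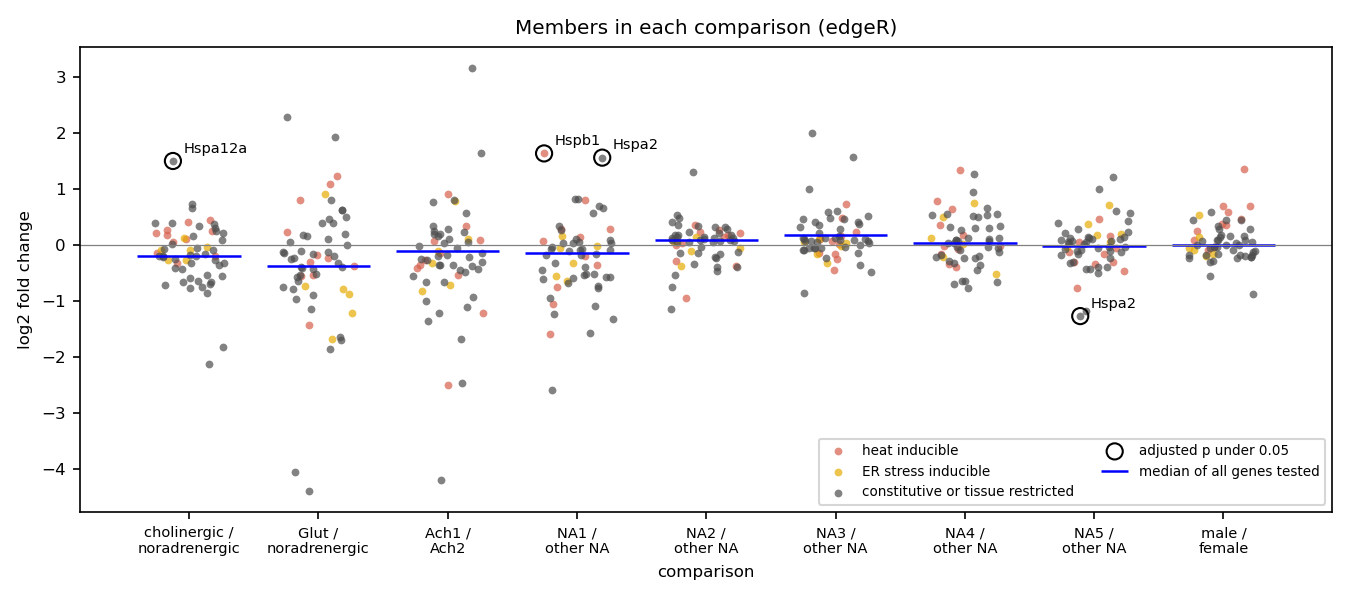
Log2 fold change (vertical axis) of each tested member in 9 comparisons (horizontal axis), coloured by class. Blue bars are the median of all genes tested and circles mark an adjusted p under 0.05 by edgeR. The 4 circled values are Hspa12a at 1.49, Hspb1 at 1.63, and Hspa2 at 1.55 and -1.27, and in each comparison the members scatter about the median of all genes.

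Each noradrenergic identity was set against the other 4. Noradrenergic1 had 2 members higher and 0 lower of 59, against 1.39% of all genes called. They were the small heat shock protein Hspb1 and the Hsp70 gene Hspa2. Hspb1 stood at 7.18 in P29 males (2 cells), 0 in P30 females (1 cell), 2.43 in P30 males (2 cells), 1.95 in P31 females (3 cells) and 1.69 in P38 males (2 cells). In the other noradrenergic cells it had a lowest value of 0.317, a median of 0.879 and a highest of 1.204 over 9 collections. Of the 5 Noradrenergic1 values, 4 lie above that range and 1 below it, and Noradrenergic1 exceeded the others in 3 of the 4 shared collections. The log2 fold change of Hspb1 was 1.63 (SE 0.28), with an adjusted p of 3.33e-06 by edgeR. The P29 male library decides the call: without that collection the log2 fold change was 1.17 with an adjusted p of 0.135. Hspb1 lies at chr5:135887919-135889563 on the plus strand.

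Hspa2 in Noradrenergic1 stood at 3.23 in P29 males, 0 in P30 females, 1.33 in P30 males, 2.12 in P31 females and 1.85 in P38 males, against a lowest of 0.575, a median of 0.792 and a highest of 1.07 in the other noradrenergic cells over 9 collections. Again 4 of 5 values lie above the range of the others, and the identity was higher in 3 of the 4 shared collections. The log2 fold change was 1.55 (SE 0.31), with an adjusted p of 0.000156 by edgeR, and the call held in all alternative settings run for it, with adjusted p between 8.6e-07 and 0.0389. Hspa2 lies at chr12:76404176-76406938 on the plus strand. Of the 11 heat-inducible genes 1, Hspb1, passed in Noradrenergic1 and 3 had an unadjusted p under 0.05, with 6 above 0. Hsph1, the large Hsp70 relative that exchanges nucleotides on Hsp70, was the second of these, with a log2 fold change of -1.05 (edgeR adjusted p = 0.247), and the third was the DnaJ gene Dnajb4, with 0.81 (edgeR adjusted p = 0.334). Atf3 (1.36) and Ier3 (1.09) were also higher in Noradrenergic1 by edgeR, as log2 fold changes, and of the 6 macrophage markers the 1 tested, Cx3cr1, was higher there too (4.74), with 11 counts in 2 of the 10 cells. Their part in the Hspb1 and Hspa2 values was not tested.

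Noradrenergic5 had 1 member lower and 0 higher of 59, against 1.41% of all genes called, and it was Hspa2 again. It stood at 0.383 in P11, 0.727 in P30, 0.374 in P31, 0.312 in P33 and 0.489 in P34 females and at 0.462 in P29 males (0.458 ± 0.147, SD, n = 6 collections). In the other noradrenergic cells it had a lowest value of 0.632, a median of 0.944 and a highest of 1.33 (0.932 ± 0.206, n = 10). Noradrenergic5 was lower in 6 of 6 shared collections, and the 2 sets overlap only through the P30 female value. The Noradrenergic5 libraries held 2 or 3 counts of Hspa2 each, apart from 20 in P31 females. The log2 fold change was -1.27 (SE 0.34), with an adjusted p of 0.0148 by edgeR. The call was lost without P29 males (adjusted p = 0.0912), without P31 females (0.313) and without P33 females (0.139), with log2 fold changes of -1.20, -1.29 and -1.14. The reference includes Noradrenergic1 at equal weight, so the 2 Hspa2 calls are not independent. With cells thinned to equal totals, Hspa2 was seen in 43.5% of Noradrenergic5 cells. It was seen in 80% of Noradrenergic1, 38.5% of Noradrenergic2, 39.8% of Noradrenergic3 and 33.3% of Noradrenergic4 cells, so detection was not lowest in Noradrenergic5. The median per cell was lowest there, at 0.348 against 0.614 to 1.99. Hspb1 had a log2 fold change of -0.77 in Noradrenergic5 that did not pass (SE 0.30, edgeR adjusted p = 0.30). Fibroblast markers were higher in the same comparison: 3 of 5 tested passed by edgeR, Lum with a log2 fold change of 3.59, Col1a1 with 3.14 and Col1a2 with 1.73, and 5 of 5 lay above 0. Their summed level ran from 0 to 17.9 counts per 10000 over the Noradrenergic5 collections, with a median of 0.948, and from 0 to 8.30 over those of the other noradrenergic identities. Their part in the Hspa2 value was not tested.

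The other 3 noradrenergic identities had 0 members called by edgeR. In Noradrenergic2 this stands against 1.64% of all genes, with 2 members at an unadjusted p under 0.05, among them Hspa12a (log2 fold change -0.75), and 0 called by DESeq2. In Noradrenergic3 it stands against 1.74%, with 5 members at an unadjusted p under 0.05 and 0 called by DESeq2. In Noradrenergic4 it stands against 1.25%, with 6 members at an unadjusted p under 0.05, and DESeq2 called 1, Hsp90aa1, which averaged 45.1 ± 6.87 there (SD, n = 5 collections) and 31.1 to 40.8 in the other identities. The median log2 fold change over the members was 0.08 in Noradrenergic2, 0.08 in Noradrenergic3 and 0.03 in Noradrenergic4, against 0.09, 0.16 and 0.03 over all genes.

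Within the members classed here as constitutive, 0 of 8 mitochondrial genes passed by edgeR in the identity comparisons. In each comparison 0 or 1 had an unadjusted p under 0.05. Hspd1 and Hspe1, which hold the heat shock element, are among these genes. The ratio of the highest to the lowest identity mean ran from 1.33 for Hspe1 and 1.45 for Hspd1 to 2.07 for Hspa9, the mitochondrial Hsp70, and 3.81 for Dnajc30. The chaperonin gene Hspd1 averaged between 2.59 ± 1.84 in Ach1 (SD, n = 7) and 3.74 ± 0.80 in Noradrenergic1 (n = 5), and its partner Hspe1 between 4.05 ± 2.60 in Glutamatergic cells (n = 3) and 5.40 ± 1.00 in Ach2 (n = 4). Of the 3 DnaJ proteins of synaptic and endosomal vesicles, 0 passed by edgeR. Dnajc5, the cysteine string protein of synaptic vesicles, averaged 2.60 ± 1.48 in Ach1 (n = 7), 1.71 ± 0.24 in Ach2 (n = 4) and 1.61 ± 0.29 in Noradrenergic3 (n = 7), and Dnajc6, the auxilin that uncoats clathrin vesicles, averaged 1.36 ± 0.53, 1.11 ± 0.21 and 1.08 ± 0.30 in the same identities. For both genes these 3 means differ by less than the SD of Ach1. Dnajc13, an endosomal DnaJ, averaged between 0.218 in Noradrenergic2 and 0.645 in Ach1, a ratio of 2.95. In Noradrenergic4 against the other noradrenergic identities, Dnajc13 had a log2 fold change of 0.93 (SE 0.37, adjusted p = 0.292) and Dnajc5 one of 0.54 (SE 0.24, adjusted p = 0.376) by edgeR, both with an unadjusted p under 0.05.

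The classic inducible Hsp70 is encoded by Hspa1a and Hspa1b, near copies 9952 bases apart on chromosome 17. Reads could be split between them by the counting, so the pair is summed. It held 365 counts in the 298 cells: 163 cells (54.7%) had 0, 109 had 1 to 3, and 3 had over 10. The 10 richest cells held 32.3% of all counts of the pair. A count was seen in 43.8% of cholinergic and 41.5% of noradrenergic cells, and after thinning each cell to 7000 counts in 12.5% and 13.99%. The pooled level was 0.349 counts per 10000 in cholinergic and 0.249 in noradrenergic cells. The difference in the pair was not tested, and Hspa1a alone had a log2 fold change of 0.40 (SE 0.54, adjusted p = 0.804) by edgeR.

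The richest cell was a Noradrenergic3 cell of a P29 male from chip 90, with 32 counts of the pair, 23 of Hspa1a and 9 of Hspa1b. In the other Noradrenergic3 cells the median was 0 and the highest 6. It also held 7 counts of Dnajb1 (others: median 1, highest 6) and 12 of Hspb1 (median 2, highest 12). Its 3 counts of Hsph1 and 129 of Hsp90aa1 equalled the medians of the others, while its 109 counts of Hspa8 were below the median of 138.5. Its summed heat-inducible level was 58.7 counts per 10000, against a median of 52.7 in the others, which ran up to 69.9. The same cell held 28 counts of Fos (median 9) and 15 of Jun (median 5), and a glial sum of 41.6 counts per 10000 (median 5.21, highest 67.1), and their part was not tested. The pair's level on chip 90 was 1.60 with this cell and 0 in the 4 other Noradrenergic3 cells of that chip.

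For most members the spread between cells, as a ratio of variance to mean, lay near that of counting noise. At a low mean such a ratio can hide a wide relative spread. In the Noradrenergic3 cells thinned to 7000 counts, the ratio of variance to mean (1 for counting noise) was computed for the 41 members with a mean of at least 0.2 counts. Its median was 1.03, against 1.06 over 5459 genes. It was 1.06 for the 8 heat-inducible and 0.90 for the 5 ER stress members that reached that mean. Among the heat-inducible genes, Hspa1a, Hspa1b and Dnaja4 did not reach it. The highest were Hspa8 (2.42), Hsp90aa1 (1.65), Hsp90ab1 (1.60), Hspa5 (1.51) and Hspd1 (1.38), and the lowest Hspa13 (0.78), Dnajc30 (0.794), Dnajc10 (0.818), Hspa4l (0.847) and Dnajc2 (0.859). The ratio grows with the mean for the same relative spread. Expressed as the spread left after counting noise, a coefficient of variation, it was 22.8% for Hspa8, 15.7% for Hsp90aa1 and 12.3% for Hsp90ab1, but 41.5% for Hspa5 and 39.6% for Hspd1. Within the 43 cells of the P31 female collection the ratio was 1.38 for Hspa8, against 1.58 for Hsp90aa1, 1.47 for Hsp90ab1, 1.68 for Hspa5 and 1.66 for Hspd1. The Hspa8 ratio was thus the one of the 5 that was much smaller within a collection than over all of them.

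**Figure D4:**
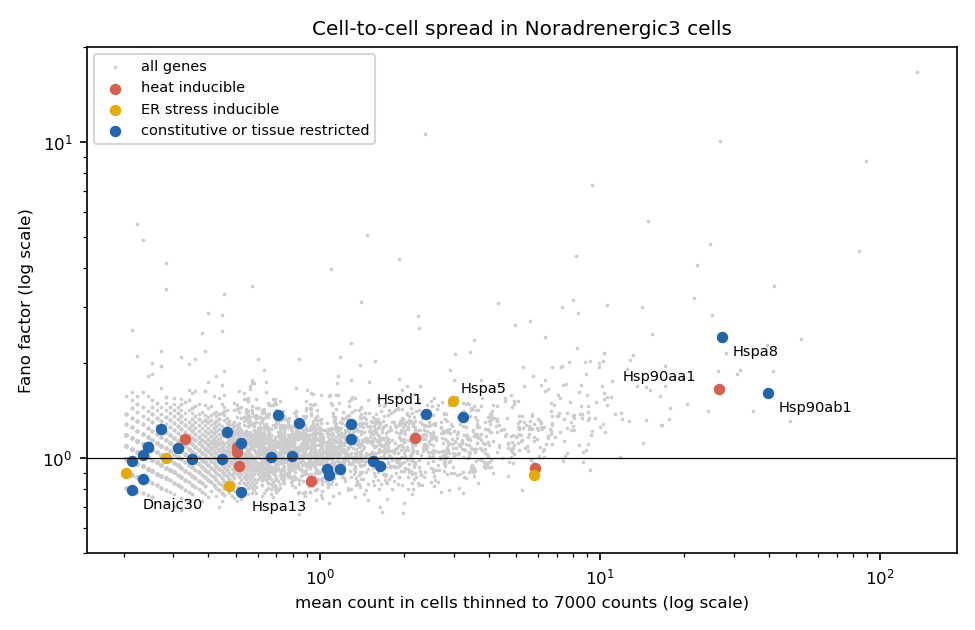
Ratio of variance to mean (vertical, log scale) against mean count (horizontal, log scale) in Noradrenergic3 cells thinned to 7000 counts. Grey points are all genes and coloured points are members by class. Hspa8 at 2.42 is highest among the members, and most members lie near the line at 1.

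Cells of 1 identity were compared across chips in Noradrenergic3, which was caught on 20 chips, 14 of them with at least 3 cells (94 cells). Levels are pooled counts per chip with exact Poisson 95% intervals, which cover counting error only, and chips carry no replicate test. Chip 104, the only chip with P11 cells here, had the lowest level of 10 of the 21 genes examined. Among them were 7 of the 11 heat-inducible genes, and chip 104 had the highest level of 1, Hspd1. The share of all genes that were lowest on chip 104 was not counted, so these numbers do not single out the chaperones. Hsp90aa1 ran between 24.3 (interval 22.3 to 26.4) on chip 104 and 42.9 on chip 80, and between 34.5 and 41.4 on the 4 chips of P31 females. Hspa8 ran between 28.01 (25.9 to 30.3) on chip 104 and 53.04 on chip 50. Its 4 P31 chips stood at 33.9 to 38.99, the 3 chips of P38 males at 47.9 to 53.04, and the 2 of P29 males at 30.7 and 42.1. For Hspa8 the chips of a collection thus lay mostly together, apart from P29.

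Among the less abundant members, Hsph1 ran between 0.353 on chip 104 and 1.59 on chip 48, and Hspb1 between 0.309 on chip 104 and 1.28 on chip 80. Of the 6 ER stress genes, 2 were lowest on chip 104, Hsp90b1 and Dnajb9. Hspa5 ran between 3.15 on chip 226 and 6.77 on chip 48, and Hsp90b1 between 6.53 on chip 104 and 9.07. The summed heat-inducible level ran between 36 and 61.2 over the chips. On chip 104 the immediate-early sum was 6.22 (highest 22.8, on chip 54) and the glial sum 3.35 (highest 21.5, on chip 90), and their part in the chip values was not tested.

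**Figure D5:**
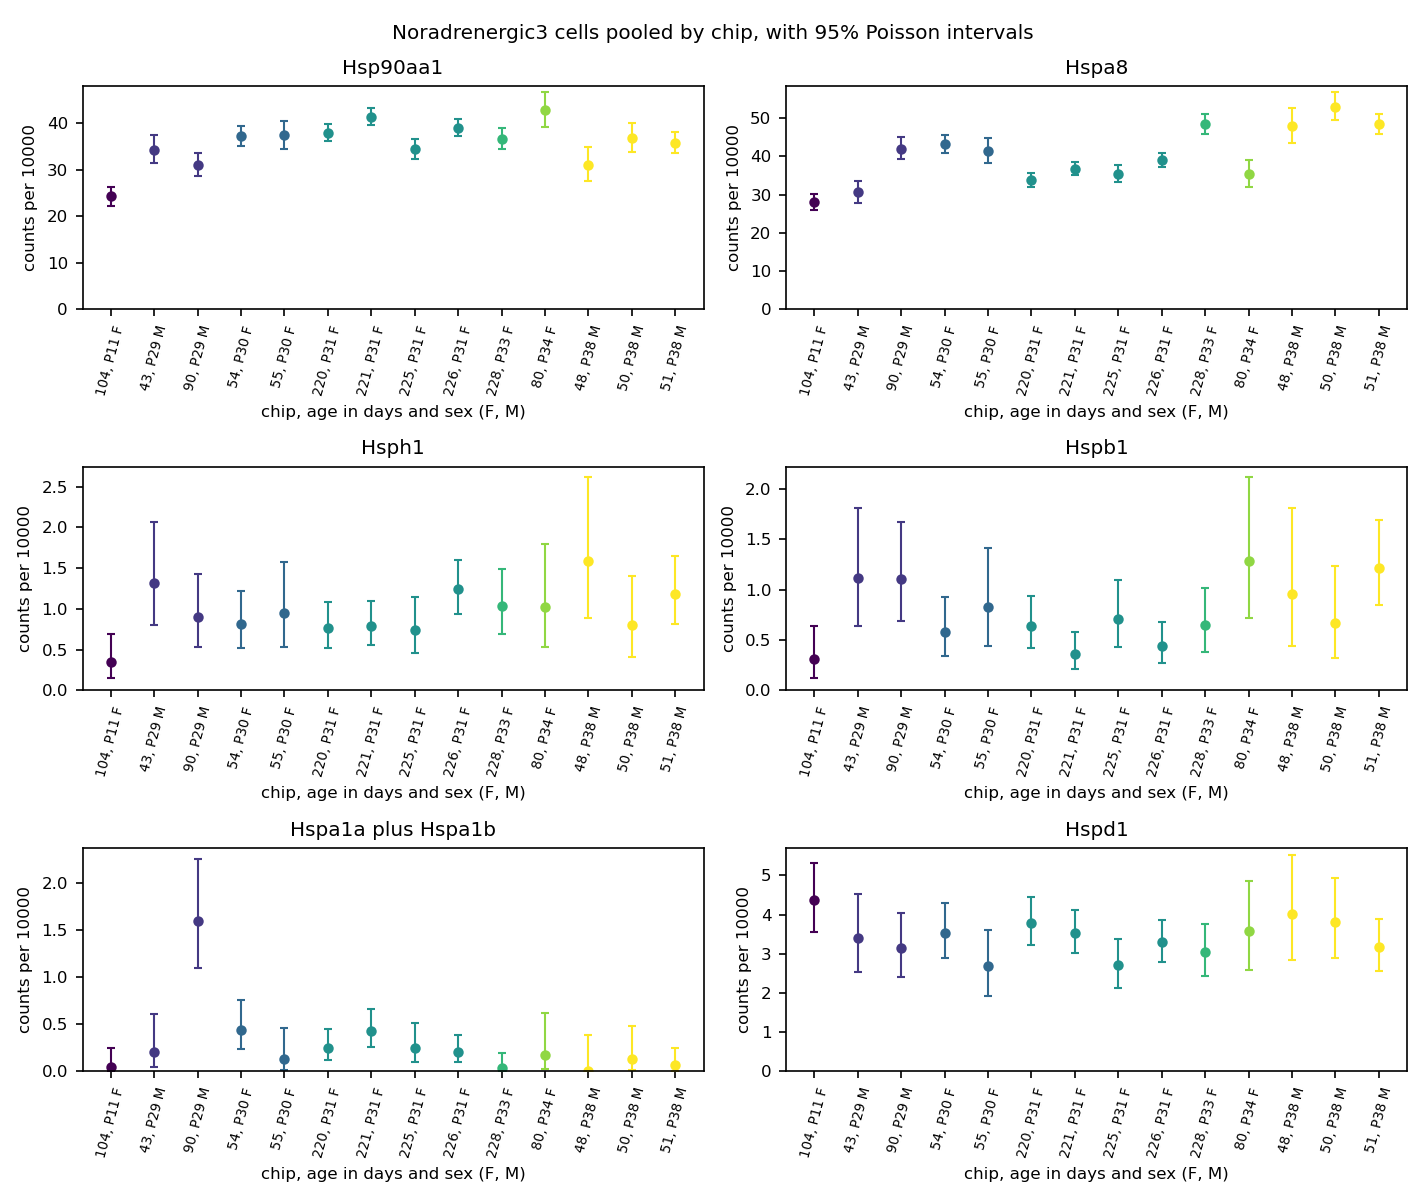
Pooled level in Noradrenergic3 cells (counts per 10000, vertical axis) on 14 chips ordered by age (horizontal axis, with chip number, age and sex), with exact Poisson 95% intervals. Chip 104 at P11 is lowest for Hsp90aa1, Hspa8, Hsph1 and Hspb1, and chip 90 stands out for Hspa1a plus Hspa1b.

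Sexes were compared in Noradrenergic3 over 7 collections with at least 3 cells, 2 of males and 5 of females. By edgeR 0 of 57 members passed, against 0.0296% of all genes (3 of 10141), 1 member had an unadjusted p under 0.05, and DESeq2 called 0. The median log2 fold change, male over female, was 0.00 over the members and -0.01 over all genes, and 9 of 11 heat-inducible genes lay above 0 with a median of 0.37. Hspb1 stood at 1.05 and 0.943 counts per 10000 in the male collections, against 0.309, 0.625, 0.515, 0.704 and 1.28 in the female collections at P11, P30, P31, P33 and P34. The sexes overlap through the P34 females, and the log2 fold change was 0.68 (SE 0.30, edgeR adjusted p = 1, unadjusted p = 0.0296). Hspa8 had a log2 fold change of 0.16. With age as a covariate 0 members passed, and the log2 fold changes were 0.52 for Hspb1 and 0.01 for Hspa8. Without P29 males 7 of 11 heat-inducible genes lay above 0, with a median of 0.04. No cell labelled male was on a chip whose identifier starts with 1772099.

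Age was examined as a slope per 10 days over the same 7 collections with sex as a covariate, a comparison added after the chip values had been seen. By edgeR 0 of 57 members passed, against 1.25% of all genes, and 8 had an unadjusted p under 0.05. The count of all genes, 127, was 6 without P11 and 70 without P31 females. The members' median slope was 0.06 and that of all genes 0.04 on the log2 scale, and 10 of 11 heat-inducible genes lay above 0, with a median of 0.25. Without P11 this was 6 of 11, with a median of 0.18. Hsp90aa1 stood at 24.3 in P11, 33.02 in P29 males, 37.2 in P30, 38.7 in P31, 37.1 in P33 and 42.9 in P34 females and 35.2 in P38 males, so the P11 collection was apart and the others overlapped in age. Its slope was 0.30 (SE 0.10, edgeR adjusted p = 0.129). Hspa4l, an Hsp110 relative, stood at 0.529 at P11 and between 1.05 and 1.79 in the 6 later collections, with a slope of 0.55 (SE 0.17, edgeR adjusted p = 0.0948). Hsph1 stood at 0.353 at P11 and between 0.908 and 1.08 later, with a slope of 0.55 (SE 0.20, edgeR adjusted p = 0.18). The constitutive Hspa8 had a slope of 0.26 (SE 0.10, edgeR adjusted p = 0.227) and Hspb1 one of 0.41 (SE 0.23, edgeR adjusted p = 0.517). The P11 cells are 6 cells of 1 chip, so age, chip and collection cannot be told apart at that end.

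Genes that work with the chaperones were counted in the same fits. Of 27 co-chaperones and heat shock factors, 1 passed in cholinergic cells and 0 in the other 9 comparisons by edgeR. It was Cryab, the crystallin that is a small heat shock protein by structure, which had 32 counts in the 16 cholinergic cells. It averaged 0.503 ± 0.371 counts per 10000 in cholinergic cells (SD, n = 7 collections) and 0.116 ± 0.116 in noradrenergic cells (n = 10), with a log2 fold change of 1.26 and an edgeR adjusted p of 0.04. Of the genes of the unfolded protein response other than members, 15 were tested in the identity comparisons and 0 passed by edgeR in any of the 10 comparisons, with 0 to 4 per comparison at an unadjusted p under 0.05.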

How the data were processed

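Polyadenylated RNA was counted per gene in 298 single cells. The deposited values are counts, whole numbers per gene and cell with no normalization, made by the authors. The build was mm10 per the submitters' processing notes. The aligner, counter, annotation, strand setting and any collapsing of molecules are not given in the sources used here. Identities, sex, age and chip were taken from the labels, and 0 columns were left without a sample. Members, classes and lists were chosen with earlier results of these data known, so no list is independent evidence.

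Counts were summed by identity and collection (44 libraries). The 11555 genes with 20 or more counts that were seen in 3 or more libraries were tested with edgeR 4.0.16 in R 4.3.3 (limma 3.58.1): TMM scaling, robust quasi-likelihood F tests, two-sided, with terms for identity and collection. Each contrast weights identities equally, p-values were adjusted over all genes (Benjamini-Hochberg), and an adjusted p under 0.05 is called. The SE is the absolute log2 fold change over the root of F and restates the test. Collections pair the libraries: deviations of 4879 genes from identity means correlated at 0.167 to 0.196 in 4 same-collection pairs and at a mean of -0.0374 in 20 other pairs. Sex and age were fitted in Noradrenergic3 over 7 collections with at least 3 cells (10141 genes). The fit was tested on simulated data. Alternatives used RLE scaling, other filters, libraries of at least 2 cells, no block, chips as block, DESeq2 1.42.0 and leaving out each collection. Tables and figures used Python 3.11.15.

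Named are all called members, both inducible lists, and the 3 other members with the largest fold change in the cholinergic and Glutamatergic comparisons. For the spread between cells the 5 highest and 5 lowest ratios are named, and for chips the inducible genes with Hspa8, Hsp90ab1, Hspd1 and Hspe1. Other genes were chosen for their role or after their values were seen. Counts are reads or molecules of unknown kind, so intervals and floors (3 counts) cover counting error only.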

Additional observations from a re-analysis of the deposited data

Results flagged for a closer look

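Values over collections were looked over for a collection far from the rest, 29 in all, most of them over the 7 Noradrenergic3 collections. The rest were of Hspa12a in cholinergic cells, Hspb1 and Hspa2 in Noradrenergic1 and Hspa2 in Noradrenergic5. By Dixon's criterion 4 stood apart, each in Noradrenergic3, while chance flags about 1 in 20 groups. Hspa1a was 0.584 counts per 10000 in P29 males, against 0.0306 to 0.195 in the other 6 collections, and it came largely from the single cell with 23 counts. Hsph1 was 0.353 in P11 females, against 0.908 to 1.08 in the others. The summed heat-inducible level, most of it Hsp90aa1, was 36 in P11 females, against 50.9 to 61.2. The summed ER stress level was 16.5 in P33 females, against 12.7 to 14.04.

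In the Unclassified cells, which entered no comparison, Hspa1a plus Hspa1b had a pooled level of 0.798 counts per 10000. A count was seen in 51.8% of these cells, and in 31.8% after thinning to 7000 counts, against 42.7% and 15.5% of Noradrenergic3 cells. The median total was 22977 in Unclassified and 36658 in Noradrenergic3 cells, and the pooled glial sum was 27.3 in Unclassified and 11.3 in Noradrenergic3 cells. Its part was not tested, nor was the difference.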

How the results depend on the processing

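In the cholinergic comparison 1 member was called in the fit described, 2 with RLE scaling, 2 with edgeR's own filter on low counts, 2 with chips as the block and 3 by DESeq2. The added gene was Hspa2 in each, with Hsp90b1 as well by DESeq2. Without the replicate block by collection 2 were called. DESeq2 called 1 member in Glutamatergic cells (Dnajb1) and 1 in Noradrenergic4 (Hsp90aa1), where edgeR called 0. The age slope without sex as covariate called 1 (Hspa4l). Leaving out each collection in turn gave 1 to 2 called members in Noradrenergic1 and 0 to 1 in Noradrenergic5, and the same count as the full fit in the other comparisons.

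Of the 28 fold changes followed for single genes under the alternatives, 409 values kept direction and side of the threshold, 7 passed it newly, 5 no longer passed and 6 changed sign. Over both inducible lists and all 10 comparisons, 221 of 2653 values changed sign, in 17 of 17 genes, and 5 changed their side of the threshold. Hspa5 in cholinergic cells, at -0.09, was 0.0834 with RLE scaling, 0.0136 with edgeR's filter, 0.166 with libraries of at least 2 cells and 0.0839 by DESeq2, and lay between -0.183 (without P38 males) and 0.00728 (without P30 males) when a collection was left out. Hspa8 in males, at 0.16, lay between -0.132 (without P38 males) and 0.379 (without P29 males). RLE scaling moved the median of all genes from -0.20 to -0.04 in cholinergic cells, from -0.39 to 0.02 in Glutamatergic cells, from -0.11 to 0.05 in Ach1 against Ach2, from -0.15 to -0.01 in Noradrenergic1 and from 0.16 to 0.05 in Noradrenergic3, so small differences there depend on scaling. The causes were not tested.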

Other observations

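The 85 Unclassified cells came from 7 collections, and their values are given by the lowest, median and highest collection in counts per 10000. The summed level of all members was 151, 185 and 212, that of the heat-inducible members 31.7, 50.2 and 53.1, and that of the ER stress members 12.1, 13.1 and 13.9. Hspa8 stood at 22.8, 36.1 and 52.02, Hsp90aa1 at 22.3, 34.01 and 35.6 and Hsp90ab1 at 42.7, 52.9 and 67.5. Of the genes that passed a test between identities, Hspb1 stood at 0, 0.569 and 0.892, Hspa2 at 0.500, 0.729 and 0.996 and Hspa12a at 0.0715, 0.498 and 0.971. The inducible pair Hspa1a plus Hspa1b stood at 0.214, 0.681 and 1.18. Ranked by counts of that pair, the cells in places 2 to 10 of the 298 were all labelled Unclassified. The summed noradrenergic markers ran from 140.4 to 199, and the glial sum from 14.6 to 29.8.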
